A study of Coturnix japonica and Phalacrocorax auritus with 29 samples.

Results

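The mitochondrial solute carriers are the proteins of the SLC25 family, and they were followed here in embryonic livers of 2 bird species exposed to chlorpyrifos, an organophosphate insecticide. Members were the protein names of solute carrier family 25, together with the calcium-binding mitochondrial carriers, that occurred in the count tables of both species. The rule found 43 members among the 18869 protein names shared by both tables. An SLC25A51-like name met it in the cormorant table only, with 0 to 41 reads per library, and was left aside.

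SLC25 carriers sit mostly in the inner mitochondrial membrane, which is otherwise closed to most charged metabolites, and exchange or import nucleotides, phosphate, amino acids, carboxylates, cofactors and metal ions. Each is a small barrel of membrane helices built from repeats of a common module. In liver they link mitochondrial pathways to those of the cytosol, including ATP export, the malate-aspartate shuttle, citrate export for lipid synthesis, carnitine-linked fatty acid import, and the supply of iron and glycine for heme. The file names say that protein names were assigned by Seq2Fun, which matches translated reads to known proteins, with a database of all birds. Most roles given here are known from mammals or yeast.

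The Japanese quail (JQ), a galliform, was represented by 5 high dose, 5 medium dose and 5 control livers, and the double-crested cormorant (DCCO), a seabird, by 5 high dose, 5 medium dose and 4 control livers. Fertilized eggs of either species had received chlorpyrifos or its DMSO solvent through the air cell before incubation. Nominal doses named in the protocol were 0.4, 4 and 40 µg for each g of egg, not tied there to medium or high. It states that the high dose was chosen in each species to keep embryo mortality under 20%. No strain or sex is given. JQ livers were taken at embryonic day 9, except JQ control replicate 5, which is labelled day 16, and DCCO livers at day 16. Species and day are therefore nearly the same split and cannot be told apart.

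Total counts ran from 11548222 to 27778954 per library in JQ and from 9890108 to 21976904 in DCCO, and the members took 0.273 to 0.346% of the counts of a JQ library and 0.226 to 0.360% of a DCCO library. All 10 hepatocyte markers, which include albumin and transthyretin, had reads in every group. Their summed level was 107315 to 196481 CPM (counts scaled to a common library total) in the JQ high dose, below every JQ control at 212537 to 257015 CPM. Which of the 10 carried the lower sum was not examined. In DCCO the sum was 107612 to 163039 CPM in the high dose and 95992 to 181241 CPM in controls, with overlap. The sum of 7 bile duct markers was 237 to 362 CPM in the JQ high dose, against 171 to 249 CPM in JQ controls, with overlap. SPP1 was at 26.5 to 187 CPM in the JQ high dose, highest in replicate 1, and above all controls at 10.7 to 14.5 CPM. Each other bile duct marker overlapped between these groups, such as EPCAM, at 99.8 to 258 CPM against 91.2 to 185 CPM. The sum of 4 matched macrophage markers was 9.52 to 18.9 CPM in the JQ high dose, against 14.8 to 25.1 CPM in JQ controls, with overlap. JQ high dose replicate 1 stood apart, with 1279.6 CPM summed over 5 kidney markers, where no other JQ library exceeded 58.6 CPM. Its SLC34A1, the phosphate transporter of the kidney tubule, was at 1208 CPM, while UMOD and AQP2 were at 0. In DCCO, control replicate 2 had the highest kidney and gut marker sums, at 269 and 471 CPM, and the lowest hepatocyte sum, at 95992 CPM. Column headers of the DCCO controls carry another prefix than those of the exposed DCCO libraries, so whatever that prefix marks cannot be told apart from exposure.

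In JQ at the high dose, 3 of the 40 members that could be tested rose and none fell. They were SLC25A39, a glutathione importer, SLC25A47, a carrier known in mammals mainly from liver, and SLC25A29, a carrier of basic amino acids. This was 7.5% of the members, where 3.56% of all 14927 features were called in either direction, 2.12% higher and 1.44% lower. Calls rest on a Benjamini-Hochberg adjusted p under 0.05 in edgeR's quasi-likelihood test. The unadjusted p was under 0.05 for 9 members, all higher, or 22.5%, against 16.6% of all features. A positive log2 fold change was found for 31 members, or 77.5%, against 51.4% of all features. The median log2 fold change was 0.15 over the members and 0.01 over all features. The groups were otherwise close, with 28 members within 0.25 of 0 on the log2 scale. These are bulk livers, so fewer cells of a type and less RNA per cell cannot be told apart, and the part of the lower hepatocyte sum, or of the bile duct and macrophage markers, in these differences was not tested.

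SLC25A39 imports glutathione into mitochondria in mammalian cells. Its level was 91.4, 88.3, 70.1, 84.0 and 88.4 CPM in JQ high dose replicates 1 to 5, against 57.1, 59.0, 52.7, 56.6 and 53.1 CPM in JQ control replicates 1 to 5. Every high dose library lay above every control, and the controls varied less than for any other member tested, with a coefficient of variation of 4.84%. The log2 fold change was 0.60 ± 0.096 (SE), with an adjusted p of 0.00255 in edgeR's test. With each of the 15 libraries left out in turn it stayed between 0.57 and 0.66 and was called each time. Non-overlap upward was found for 2 members, SLC25A39 and SLC25A13, and for 2.7% of all features.

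SLC25A47 is a carrier of the inner membrane whose substrate is not settled and which mammals make mainly in hepatocytes. It stood at 12.2, 2.31, 5.39, 6.73 and 13.7 CPM in JQ high dose replicates 1 to 5, against 0.817, 2.96, 1.65, 1.47 and 1.92 CPM in JQ control replicates 1 to 5. Replicates 1 and 5 of the high dose were the highest, and replicate 2 lay inside the range of the controls. It had a log2 fold change of 2.21 ± 0.42 (SE), the largest among the 3 called members, with an adjusted p of 0.00872 in edgeR's test. Leaving out single libraries gave 1.93 to 2.47, called each time, with 2.01 without replicate 1, the library with kidney markers. High dose replicate 5 had a gut marker sum of 846 CPM, against 205 to 441 CPM in the other high dose libraries. JQ controls were at 154 to 324 CPM for this sum. No fit left out both replicates together, and the part of other tissue in the SLC25A47 values was not tested. These values are low, with 962 reads over the 5 high dose libraries and 146 over the 5 controls.

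SLC25A29 carries arginine, lysine and related amino acids in mammals. It was at 45.8, 31.3, 67.8, 81.6 and 64.4 CPM in JQ high dose replicates 1 to 5, against 18.8, 29.3, 41.2, 29 and 35.0 CPM in JQ control replicates 1 to 5. High dose libraries 1, 3, 4 and 5 lay above all controls, and library 2 lay among them. Its log2 fold change was 0.93 ± 0.23 (SE) with an adjusted p of 0.0407 in edgeR's test. The call was lost without any one of 10 libraries, with the adjusted p reaching 0.0981. These were JQ control replicates 1, 2, 4 and 5, high dose replicates 3, 4 and 5, and medium dose replicates 2, 3 and 4. Over all 15 libraries left out singly the log2 fold change ranged from 0.77 to 1.08.

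**Figure D1:**
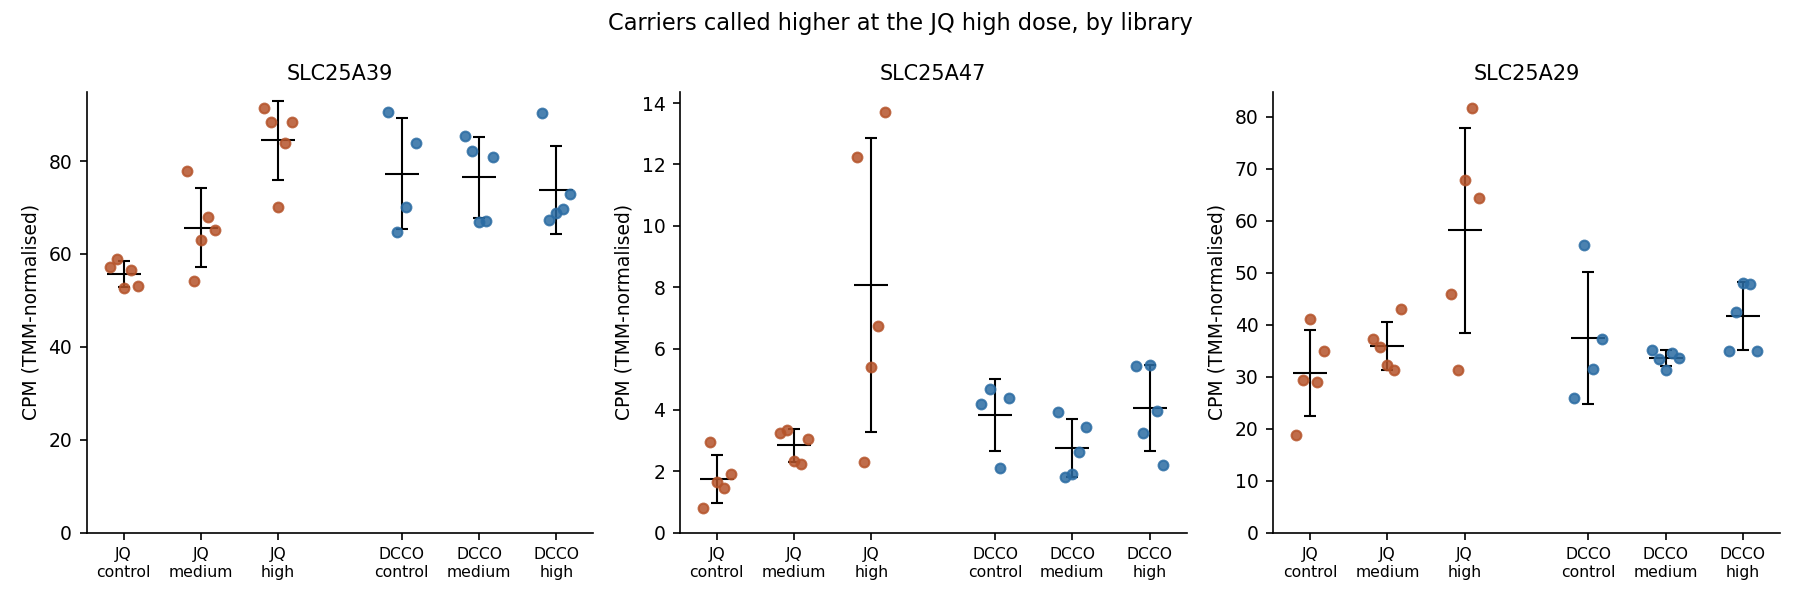
TMM-normalised CPM (y axis) of SLC25A39, SLC25A47 and SLC25A29 by species and dose group (x axis); points are libraries, horizontal marks are group means and bars are ± SD (n = 5, or 4 for the DCCO control). At the JQ high dose SLC25A39 averages 84.4 CPM, above all JQ controls, while its DCCO groups average between 73.8 and 77.3 CPM and overlap.

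Among carriers of iron and glutathione, SLC25A39 was the called member. SLC25A37 and SLC25A28, the mitoferrins that import iron for heme and iron-sulfur clusters, had JQ log2 fold changes of 0.19 ± 0.26 and 0.10 ± 0.15 (SE). SLC25A40, the closest relative of SLC25A39, averaged 0.481 ± 0.287 CPM at the JQ high dose and 0.909 ± 0.484 CPM in JQ controls (SD, n = 5 each), a log2 fold change of -0.91 with an adjusted p of 0.311 in edgeR's test. Its reads were near the limit of counting, where 3 reads are worth 0.113 to 0.262 CPM in a JQ library. An SLC25A39-like name had 4 reads over all 15 JQ libraries and could not be tested.

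The 6 amino acid carriers had positive JQ log2 fold changes, that of SLC25A38 turning negative in 4 of 23 alternatives, and SLC25A29 was the one called. SLC25A15, the ornithine carrier of the urea cycle in mammals, had the largest log2 fold change of any member, 2.88 ± 0.92 (SE), with an adjusted p of 0.104 in edgeR's test. It was at 33.5, 1.35, 1.05, 1.24 and 1.39 CPM in JQ high dose replicates 1 to 5, against 1.18, 1.10, 1.17, 0.767 and 0.988 CPM in JQ control replicates 1 to 5. The value of replicate 1 alone set it apart, and that is the library with kidney markers. With that library left out, the log2 value was 0.27 and the other 4 libraries averaged 1.26 ± 0.154 CPM (SD, n = 4). SLC25A22, a glutamate carrier, SLC25A44, a carrier of branched-chain amino acids, SLC25A21, an oxodicarboxylate carrier, and SLC25A38, which supplies glycine for heme, lay between 0.05 and 0.24 and were not called.

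The same library was also highest for SLC25A48, a carrier of less settled function, and for SLC25A36, a pyrimidine nucleotide carrier. SLC25A48 was at 33.9 CPM in it and at 4.22 to 9.82 CPM in the other 4 high dose libraries, against 7.39 to 14.2 CPM in JQ controls. SLC25A36 was at 4.22 CPM in it and at 1.20 to 2.0 CPM in the other 4, against 1.93 to 3.20 CPM in JQ controls. Neither was called, with log2 fold changes of 0.28 ± 0.45 and -0.07 ± 0.29 (SE). Over the alternatives they ranged from -0.53 to 0.50 for SLC25A48 and from -0.45 to 0.09 for SLC25A36. The part of kidney tissue in these values was not tested.

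**Figure D2:**
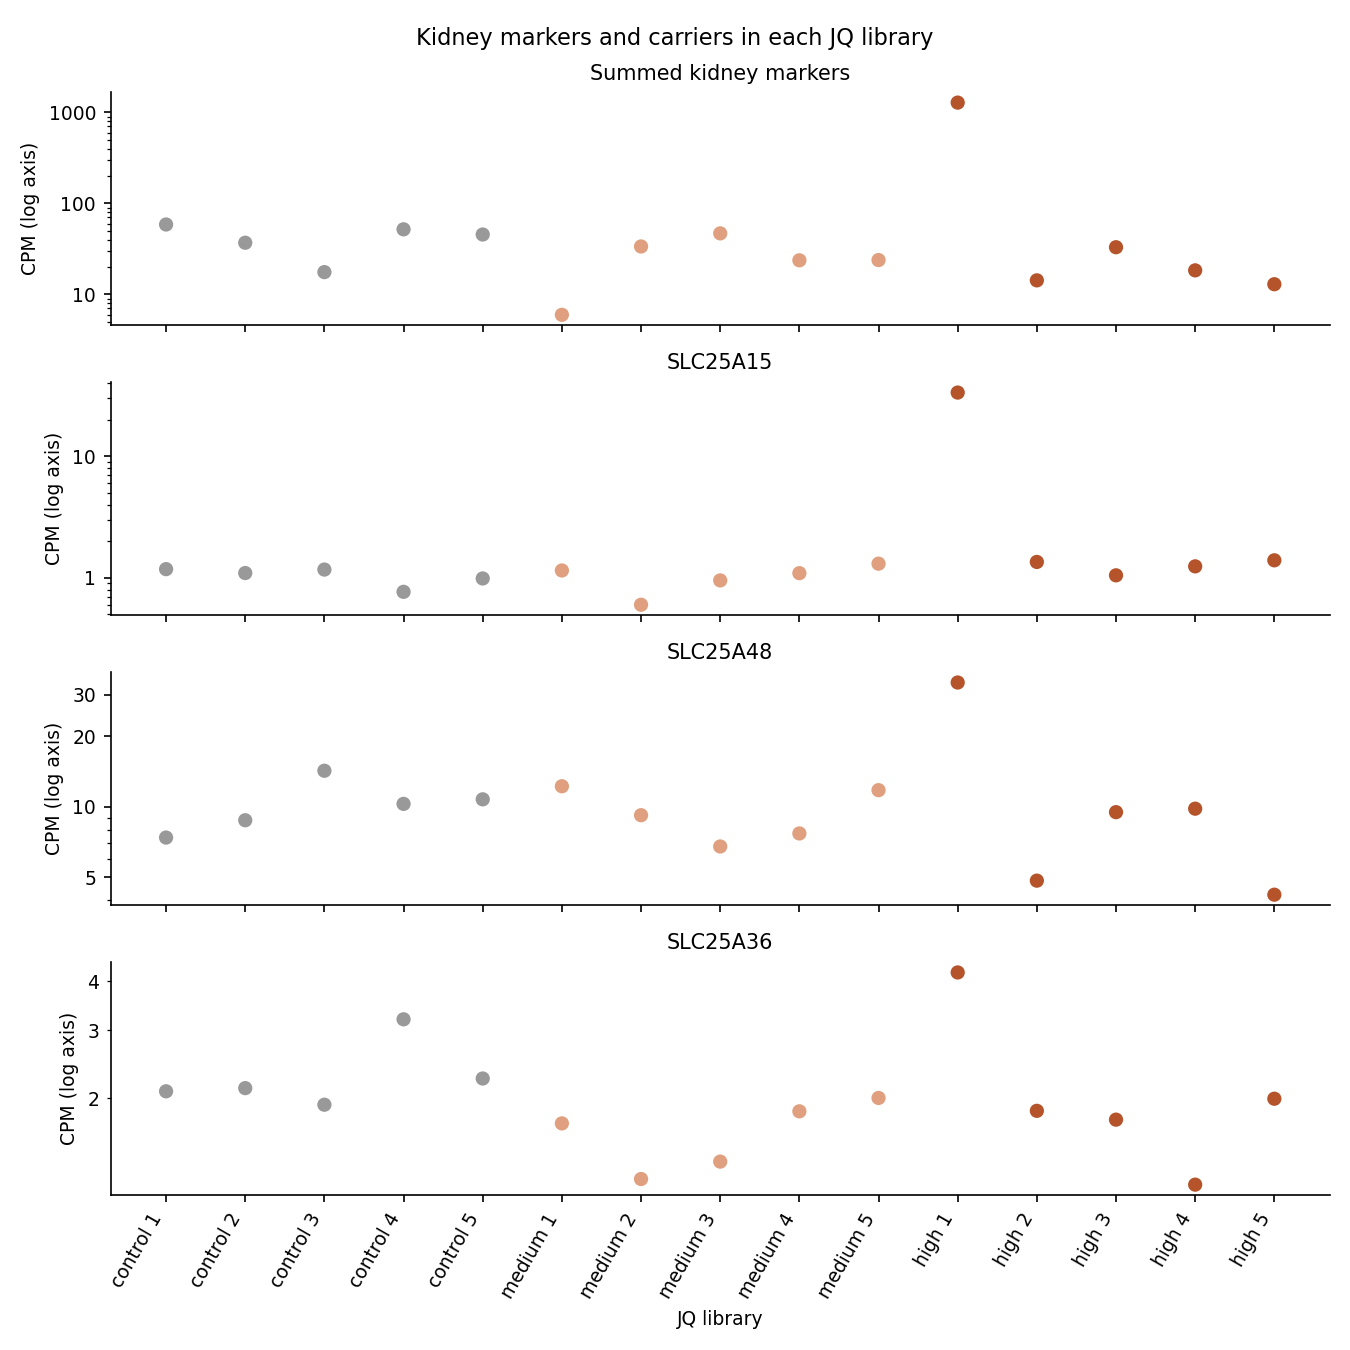
Summed CPM of the 5 kidney markers and CPM of SLC25A15, SLC25A48 and SLC25A36 (y axes, logarithmic) in each of the 15 JQ libraries (x axis, in dose order); each point is one library, in grey for control, light orange for medium dose and dark orange for high dose. High dose replicate 1 is the highest in all 4 panels, at 1279.6 CPM for the kidney markers and 33.5 CPM for SLC25A15.

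The carriers of aspartate and glutamate were all higher at the JQ high dose without passing the test. SLC25A13, called citrin and the main form of this carrier in mammalian liver, moves aspartate out of mitochondria for the malate-aspartate shuttle and the urea cycle. It was at 145, 140, 133, 160 and 172 CPM in JQ high dose replicates 1 to 5, against 113, 132, 90.4, 111 and 124 CPM in JQ control replicates 1 to 5. All 5 high dose libraries lay above all controls, by a small margin at the closest pair. The log2 fold change was 0.39 ± 0.11 (SE), with an adjusted p of 0.0606 in edgeR's test and of 0.0114 in DESeq2's Wald test, which called it. SLC25A12, the other form, and an aralar1-like name had log2 fold changes of 0.19 ± 0.17 and 0.34 ± 0.29 (SE).

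Carriers of carboxylates and of carnitine showed small differences. SLC25A1, the citrate exporter that feeds lipid synthesis, averaged 670 ± 112 CPM at the JQ high dose and 598 ± 52.0 CPM in JQ controls (SD, n = 5 each). SLC25A10, the dicarboxylate carrier, SLC25A11, the oxoglutarate and malate exchanger, and SLC25A20, which brings acylcarnitines to fatty acid oxidation, had log2 fold changes of 0.07 ± 0.15, -0.08 ± 0.079 and -0.05 ± 0.13 (SE). None of the 4 was called by edgeR's test, and none had an unadjusted p under 0.05.

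No carrier of adenine nucleotides or phosphate was called at the JQ high dose. SLC25A3 imports phosphate, SLC25A4 and SLC25A5 exchange ADP for ATP, and SCaMC-2 and SLC25A24 load mitochondria with ATP-magnesium under calcium control. SCaMC-2, whose usual symbol is SLC25A25, was at 44.1, 76.9, 47.7, 41.5 and 65.4 CPM in JQ high dose replicates 1 to 5, against 40.6, 31.2, 41.0, 43.7 and 46.3 CPM in JQ control replicates 1 to 5. Replicates 2, 3 and 5 lay above all controls, and the log2 fold change was 0.44 ± 0.20 (SE) with an adjusted p of 0.274 in edgeR's test. SLC25A5 had a log2 fold change of 0.20 ± 0.092, SLC25A4 of 0.19 ± 0.18, SLC25A3 of 0.14 ± 0.11 and SLC25A24 of -0.13 ± 0.13 (SE). A second name of SLC25A5 held 8.86% of the reads of both names in JQ and one of SLC25A4 held 17%, and reads of such near-identical proteins may be shared out between names.

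Of the 11 carriers of cofactors and nucleotides none was called in JQ, and 7 had positive log2 fold changes. SLC25A51, the NAD importer, was at 8.01, 7.38, 9.92, 8.87 and 13.3 CPM in JQ high dose replicates 1 to 5, against 7.98, 7.54, 6.54, 7.35 and 8.35 CPM in JQ control replicates 1 to 5. Replicates 3, 4 and 5 lay above all controls, and the log2 fold change was 0.33 ± 0.15 (SE) with an adjusted p of 0.264 in edgeR's test. The others included the carriers of S-adenosylmethionine (SLC25A26), folate (SLC25A32), coenzyme A (SLC25A16 and SLC25A42) and pyrimidine nucleotides (SLC25A33 and SLC25A36), and ran from -0.41 to 0.29. The largest spread among them was that of SLC25A33, with 14.0 ± 3.82 CPM in high dose livers and 18.6 ± 9.36 CPM in control livers (SD, n = 5 each).

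The relatives of the uncoupling proteins, SLC25A14 and SLC25A30, had JQ log2 fold changes of 0.02 ± 0.12 and 0.00 ± 0.32 (SE). SLC25A30 was highest in the library with kidney markers, at 3.45 CPM. The other 4 high dose libraries averaged 1.47 ± 0.460 CPM (SD, n = 4), and JQ controls 1.89 ± 0.526 CPM (SD, n = 5). Its log2 fold change ranged from -0.37 to 0.17 over the alternatives. SLC25A27, also of this type, had 1 read in all 15 JQ libraries, where DCCO libraries had 35 to 169 reads each. Of the members without a settled substrate other than SLC25A47 and SLC25A48, SLC25A34, SLC25A43 and SLC25A46 lay between -0.15 and 0.19. SLC25A31, the ADP/ATP exchanger of germ cells in mammals, had 19 reads over all JQ libraries and was not tested in either species.

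At the medium dose in JQ none of the 40 members was called by edgeR, DESeq2 or limma voom, and edgeR called 0% of all features. An unadjusted p under 0.05 was found for 3 members, SCaMC-2, SLC25A39 and SLC25A17, or 7.5%, against 4.33% of all features. Log2 fold changes were positive for 29 members, or 72.5%, against 51.5% of all features, with a median of 0.08 against 0.01. SLC25A39 was at 77.9, 54.3, 63.0, 68.0 and 65.2 CPM in JQ medium dose replicates 1 to 5, where replicate 2 lay among the controls and the others above them. Its log2 fold change against control was 0.24 ± 0.096 (SE), with an adjusted p of 0.999 in edgeR's test. SLC25A47 was at 3.24, 3.36, 2.33, 2.23 and 3.05 CPM in the same libraries, a log2 fold change of 0.70 ± 0.42 (SE). SCaMC-2 had the smallest p, with 82.3, 50.0, 44.2, 72.9 and 52.2 CPM and a log2 fold change of 0.57 ± 0.20 (SE). JQ medium dose replicate 1, the highest of these for SCaMC-2 and SLC25A39, also had the highest gut marker sum of all libraries, at 1184 CPM. All 5 medium dose libraries had a higher sum of the 6 gut markers, at 374 to 1184 CPM, than all 5 JQ controls, at 154 to 324 CPM. The part of these markers in the differences was not tested, nor was it examined which of the 6 carried the sums.

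Between the high and the medium dose in JQ edgeR called none of the 40 members and 1.89% of all features, while 6 members (and 13.4% of all features) had an unadjusted p under 0.05. DESeq2 called 2 members and limma voom none. SLC25A39 averaged 84.4 ± 8.42 CPM in high dose livers and 65.7 ± 8.52 CPM at the medium dose (SD, n = 5 each), a log2 fold change of 0.36 ± 0.096 (SE). Its adjusted p was 0.0720 in edgeR's test and 0.0107 in DESeq2's. SLC25A47 averaged 8.07 ± 4.78 CPM in high dose livers and 2.84 ± 0.527 CPM at the medium dose (SD, n = 5 each), a log2 fold change of 1.51 ± 0.40 (SE). Its adjusted p was 0.0754 in edgeR's test and 0.00810 in DESeq2's. Both comparisons of the high dose share its 5 libraries. In edgeR's test SLC25A39 was called without high dose replicate 3 or medium dose replicate 1, and SLC25A47 and SLC25A29 without high dose replicate 2.

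In DCCO no member was called at the high dose by edgeR, DESeq2 or limma voom, where edgeR called 0.0343% of all 14579 features. An unadjusted p under 0.05 was found for 4 of the 40 members, or 10%, against 5.33% of all features, with SLC25A37 higher and SCaMC-2, SLC25A33-like and SLC25A36-like lower. Positive log2 fold changes were found for 16 members, or 40%, against 47.9% of all features. The median was -0.03 over the members and -0.01 over all features. Most members lay close to their controls, with 31 within 0.25 of 0 on the log2 scale.

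**Figure D3:**
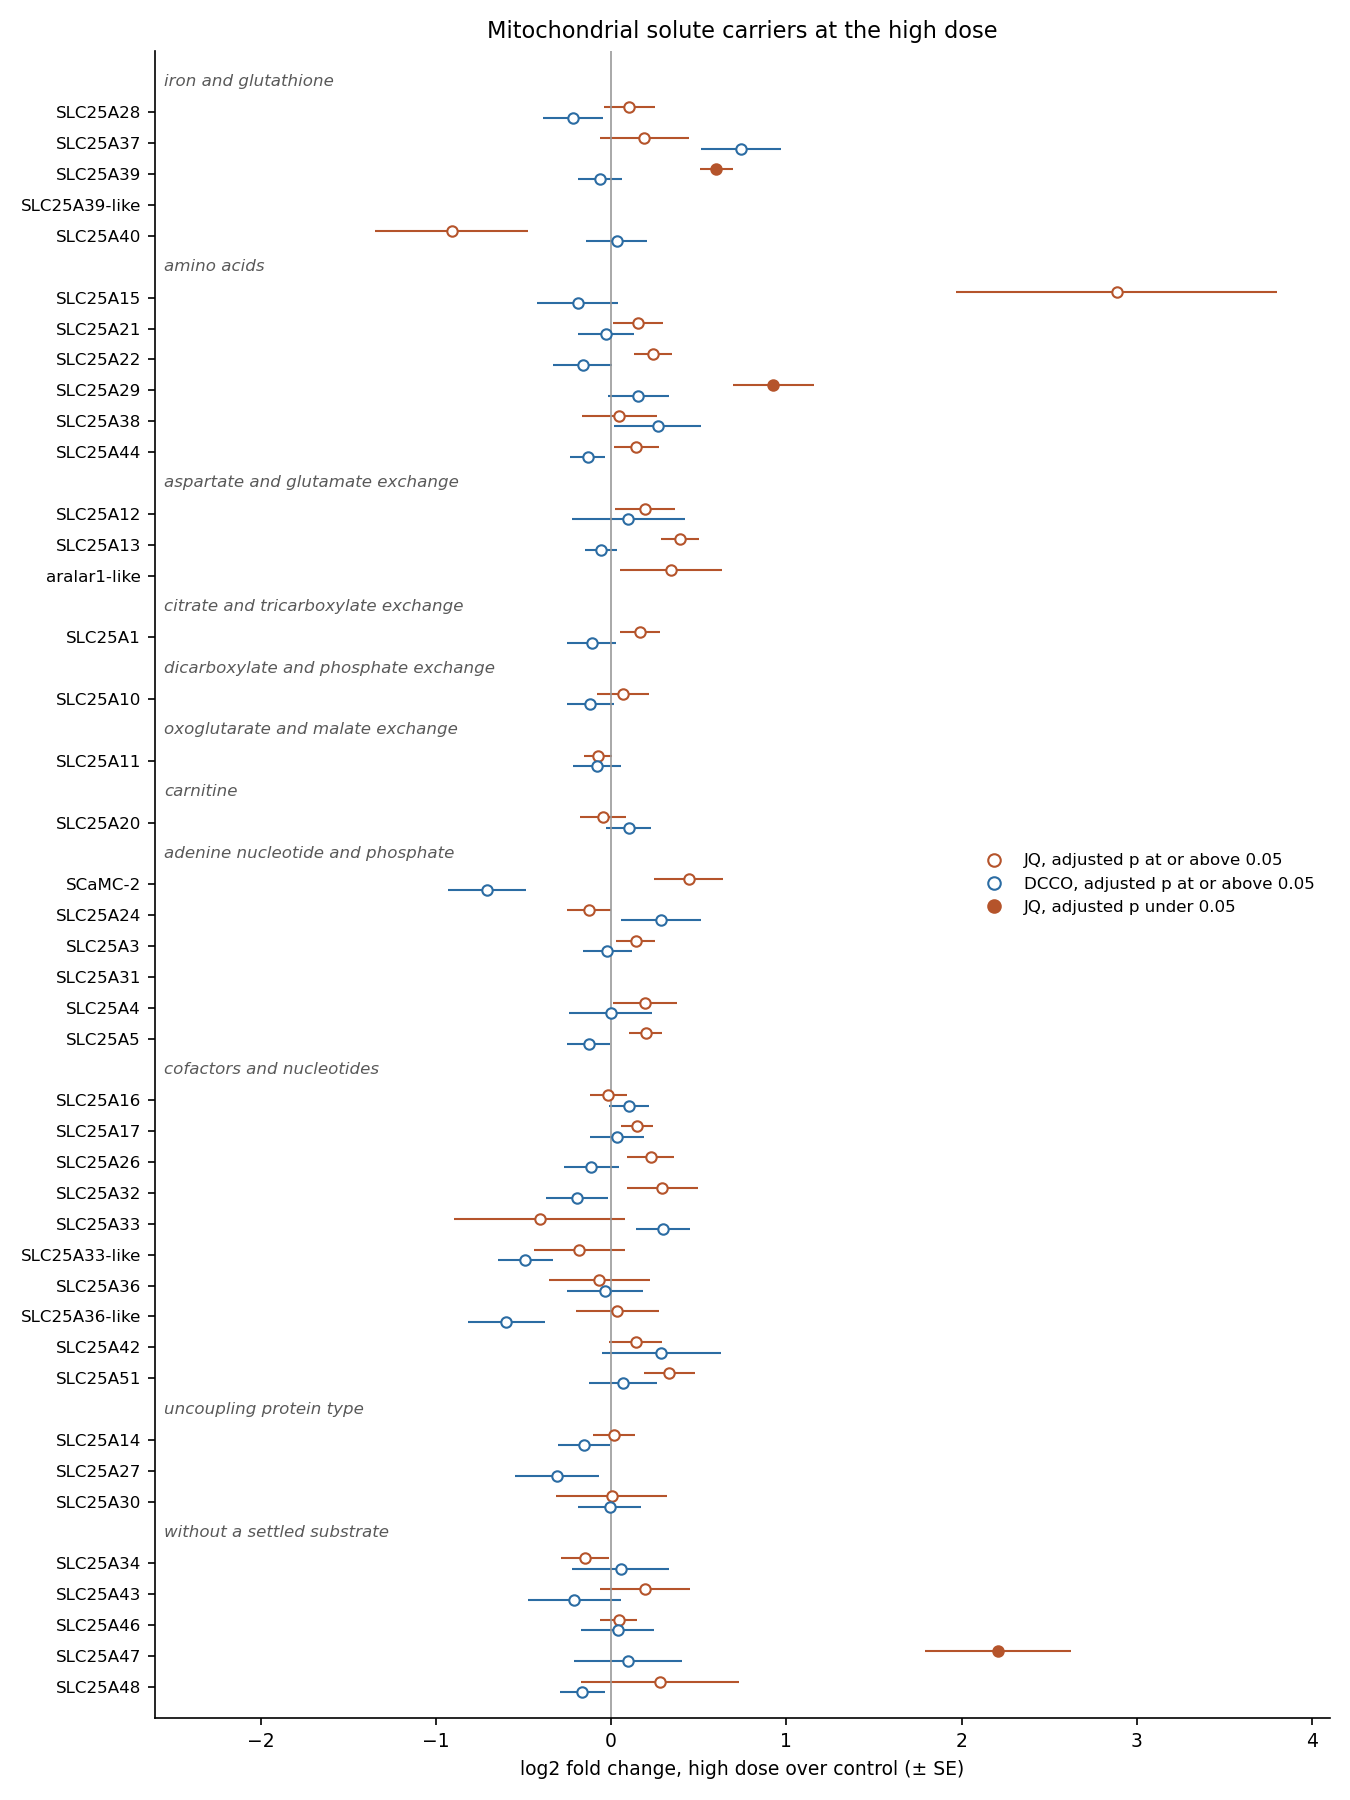
Log2 fold change, high dose over control, ± SE (x axis) of the members (y axis, grouped by role; 1 not shown), with JQ above DCCO in each row; filled points have an adjusted p under 0.05 and rows without a point were not tested. SLC25A39, SLC25A47 and SLC25A29 are filled in JQ, at 0.60, 2.21 and 0.93, and no DCCO point is filled.

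The 3 carriers called in JQ had small DCCO differences. SLC25A39 was at 90.4, 67.2, 68.8, 69.7 and 73.0 CPM in DCCO high dose replicates 1 to 5, against 90.5, 64.8, 70.1 and 83.8 CPM in DCCO control replicates 1 to 3 and the unnumbered control. The groups overlapped, and the log2 fold change was -0.07 ± 0.13 (SE). SLC25A47 was at 5.43, 3.26, 5.46, 3.98 and 2.19 CPM in DCCO high dose replicates 1 to 5, against 4.19, 4.70, 2.10 and 4.38 CPM in the DCCO controls in the same order, a log2 fold change of 0.10 ± 0.31 (SE). SLC25A29 was at 34.9, 42.5, 48.0, 47.8 and 35.0 CPM in DCCO high dose replicates 1 to 5, against 25.9, 55.2, 31.4 and 37.3 CPM in those controls, a log2 fold change of 0.15 ± 0.18 (SE).

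SLC25A37, mitoferrin-1, had the smallest p of the members at the DCCO high dose. It was at 10.1, 13.9, 11.4, 16.6 and 6.98 CPM in DCCO high dose replicates 1 to 5, against 5.01, 7.43, 7.94 and 7.96 CPM in DCCO control replicates 1 to 3 and the unnumbered control. Replicates 1 to 4 lay above all controls and replicate 5 among them. This gave a log2 fold change of 0.74 ± 0.23 (SE), with an adjusted p of 0.582 in edgeR's test. SLC25A37 is most abundant in developing red cells in mammals, and the sum of 8 matched erythroid markers was 172 to 491 CPM in the DCCO high dose, against 66.7 to 262 CPM in the DCCO controls. HBA1 was at 0 in both groups and ALAS2 at 0 in the controls, and the part of these cells in the difference was not tested.

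SCaMC-2 was at 42.9, 46.4, 41.0, 47.7 and 27.6 CPM in DCCO high dose replicates 1 to 5, against 51.5, 106, 55.3 and 56.2 CPM in DCCO control replicates 1 to 3 and the unnumbered control. All 5 high dose libraries lay below all controls, which held for this member and for 0.556% of all features. This gave a log2 fold change of -0.71 ± 0.22 (SE), with an adjusted p of 0.602 in edgeR's test, and it was -0.40 without control replicate 2. At the medium dose SCaMC-2 was at 36.9, 33.0, 36.0, 29.6 and 20.1 CPM, again below every control. The log2 fold change there was -1.11 ± 0.22 (SE), with an adjusted p of 0.144 in edgeR's test and of 0.00234 in DESeq2's, which called it. With single libraries left out the value ranged from -1.23 to -0.81, at adjusted p of 0.0911 to 0.365 in edgeR's test. The DESeq2 fit was not repeated with libraries left out.

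SLC25A33-like and SLC25A36-like, 2 names similar to the pyrimidine nucleotide carriers, had the other small p values. SLC25A33-like was at 27.9, 19.9, 20.1, 19.9 and 21.9 CPM in DCCO high dose replicates 1 to 5, against 28.3, 43.7, 24.7 and 26.3 CPM in DCCO control replicates 1 to 3 and the unnumbered control. SLC25A36-like was at 9.03, 5.01, 6.71, 5.21 and 5.58 CPM in the same high dose libraries, against 8.30, 14.8, 7.12 and 8.05 CPM in those controls. In both, control replicate 2 was far the highest and high dose replicate 1 lay among the controls. The log2 fold changes were -0.49 ± 0.16 and -0.60 ± 0.22 (SE), with adjusted p of 0.604 and 0.778 in edgeR's test. Without control replicate 2, the DCCO library with the highest kidney and gut marker sums, they were -0.27 and -0.31.

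**Figure D4:**
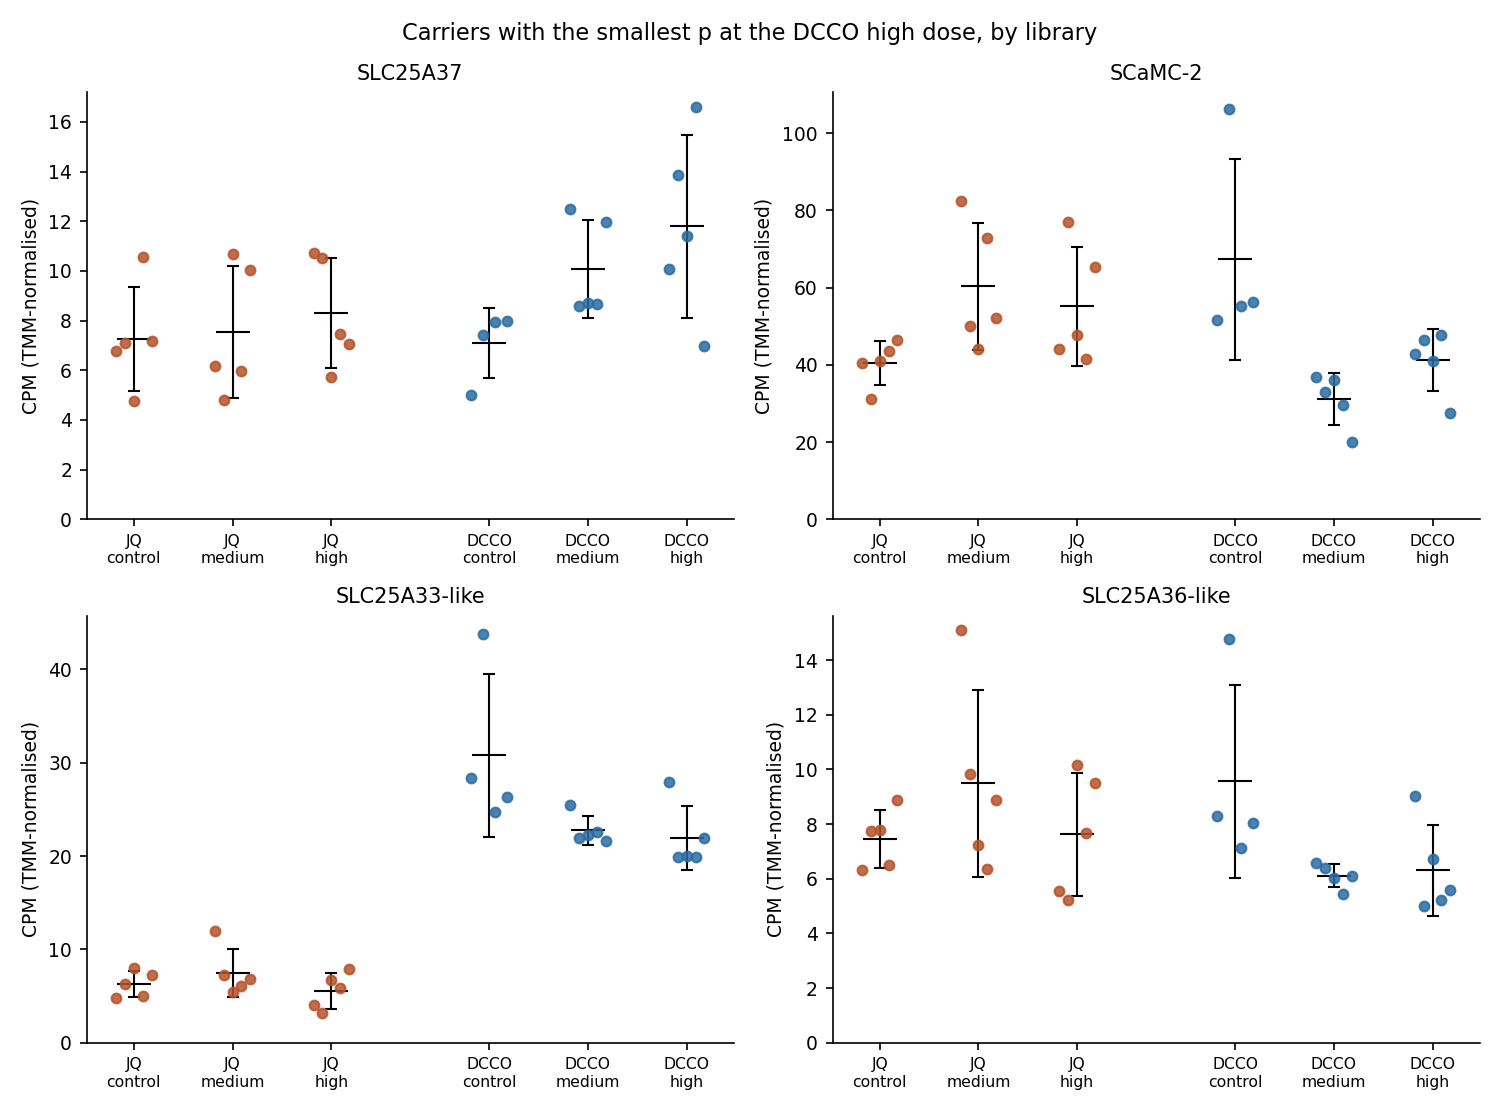
TMM-normalised CPM (y axis) of SLC25A37, SCaMC-2, SLC25A33-like and SLC25A36-like by species and dose group (x axis); points are libraries, horizontal marks are group means and bars are ± SD (n = 5, or 4 for the DCCO control). One DCCO control library, at 106 CPM for SCaMC-2 and 14.8 CPM for SLC25A36-like, lies far above the other 3.

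At the medium dose in DCCO none of the 40 members was called by edgeR, where 0.048% of all features were, while DESeq2 called SCaMC-2 alone and limma voom none. An unadjusted p under 0.05 was found for 4 members, or 10%, against 5.71% of all features. Log2 fold changes were positive for 12 members, or 30%, against 48.8% of all features, with a median of -0.10 against -0.01. The groups did not overlap for SLC25A37, which was higher, as were 1.36% of all features, and for SCaMC-2 and SLC25A36-like, which were lower, as were 1.06%. SLC25A37 was at 12.5, 8.60, 8.69, 8.66 and 12 CPM in DCCO medium dose replicates 1 to 5, a log2 fold change of 0.50 ± 0.23 (SE) against the controls. The medium and high dose comparisons share the 4 control libraries. Between the high and medium dose of DCCO edgeR, DESeq2 and limma voom called none of the 40 members, edgeR called 0% of all features, and 0 members had an unadjusted p under 0.05, against 3.26% of all features.

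The title of the series names species differences in sensitivity, and the test of a difference in response is the JQ high dose effect minus the DCCO high dose effect, fitted over all 29 libraries. Of 41 members tested, 2 were called, both with a larger effect in JQ, where 1.21% of all 15596 names were called in either direction and 0.757% higher. An unadjusted p under 0.05 was found for 8 members, against 11.8% of all names. The difference was 0.66 ± 0.16 (SE, log2) for SLC25A39, with an adjusted p of 0.0309 in edgeR's test, and 2.10 ± 0.54 for SLC25A47, with an adjusted p of 0.0473. Embryonic day and the unstated dose of each high dose group cannot be told apart from species. Whatever the header prefix of the DCCO controls marks cannot be told apart from the DCCO exposure in this difference. Both calls are close to the threshold. That of SLC25A39 was lost without any one of 8 libraries, at adjusted p of 0.0531 to 0.0729. These were DCCO control replicate 1 and the unnumbered control, DCCO high dose replicates 2 to 5, JQ control replicate 3 and JQ high dose replicate 5. That of SLC25A47 was lost without any one of 22 libraries, at adjusted p of 0.0508 to 0.0992, and kept without DCCO control 3, DCCO high dose 1, JQ control 2, JQ high dose 2, 3 or 4, or JQ medium dose 1. Their differences stayed between 0.57 and 0.75 and between 1.81 and 2.36. Both calls were lost without the kidney marker library and the day 16 control together, at adjusted p of 0.0666 and 0.0877 in edgeR's test. A block on the replicate numbers, fitted over the numbered libraries, also lost both, at 0.0647 and 0.242 in edgeR's test. That of SLC25A47 was lost in limma voom too, at 0.171.

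SCaMC-2 came next, with a difference of 1.15 ± 0.31 (SE, log2) and an adjusted p of 0.0687 in edgeR's test, from a positive JQ and a negative DCCO value. It was called without JQ high dose replicate 1 or 4 and was not called without any other single library, where the adjusted p reached 0.201. With single libraries left out the SCaMC-2 difference ranged from 0.85 to 1.25. Its DCCO log2 fold change at the high dose was -0.40 without DCCO control replicate 2. SLC25A15 had a difference of 3.03 ± 0.96 (SE, log2), which was 0.48 without JQ high dose replicate 1. SLC25A13 had a difference of 0.44 ± 0.14 with an adjusted p of 0.149, and SLC25A29, called in JQ alone, one of 0.77 ± 0.30 with an adjusted p of 0.269 in edgeR's test. A difference between the species was therefore not shown for SLC25A29.

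Levels in the unexposed livers differed between the tables for some members. They are set side by side with no test, since species and embryonic day differ and each table was scaled on its own. Of the 41 members tested in both species together, JQ controls lay above all DCCO controls for 11, where 28% of all names did, and below for 14, where 34.5% did. The counts are close to those shares of all names. SLC25A5, an ADP/ATP exchanger, averaged 243 ± 16.3 CPM in JQ controls (SD, n = 5) and 18.5 ± 3.54 CPM in DCCO controls (SD, n = 4). SLC25A6, a close relative named outside the rule, averaged 1195 ± 203 CPM in JQ controls and 2939 ± 836 CPM in DCCO controls. SLC25A40 averaged 0.909 ± 0.484 CPM in JQ controls and 10.2 ± 2.34 CPM in DCCO controls, and SLC25A48 averaged 10.3 ± 2.58 and 56.8 ± 3.10 CPM in JQ and in DCCO controls. Reads of near-identical exchangers may be assigned to other names in one species than in the other.

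The spread among control livers was similar to that of other features. The median coefficient of variation was 14.9% over the members and 16.4% over all features in JQ controls, and 19.7% and 21.7% in DCCO controls. SLC25A40 varied the most in JQ, at 53.3%, and SLC25A42 in DCCO, at 45.4%. In DCCO, control replicate 2 was the highest control for 20 of the 40 members tested, and high dose replicate 1 and medium dose replicate 3 were each the highest of their group for 15. The same was not counted over all features, so these counts cannot be read as particular to the carriers.

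A few genes of other mitochondrial and related lists were called at the JQ high dose, where 2.12% of all features were called higher and the median of all features was 0.01. Among 23 tested genes of mitochondrial membrane transport outside the rule, 2 rose and none fell, with a median log2 fold change of 0.07. MPC1, a subunit of the mitochondrial pyruvate carrier, averaged 633 ± 107 CPM in high dose livers and 268 ± 38.1 CPM in JQ controls (SD, n = 5 each), a log2 fold change of 1.24 ± 0.18 (SE) with an adjusted p of 0.00121 in edgeR's test. SFXN1, a mitochondrial serine transporter, averaged 277 ± 63.3 CPM in high dose livers and 182 ± 29.4 CPM in control livers, a log2 fold change of 0.60 ± 0.15 (SE) with an adjusted p of 0.0418. The SFXN1 call was lost without any one of 10 libraries, at up to 0.110, and kept without high dose replicate 2, medium dose replicate 1, 2 or 5 or control replicate 3. Of 4 tested members of the SLC25 superfamily with other names, SLC25A6, MTCH1, MTCH2 and UCP3, none was called by edgeR and none had an unadjusted p under 0.05. SLC25A6, MTCH1 and UCP3 had the smallest p, with log2 fold changes of 0.22 ± 0.15, 0.14 ± 0.15 and 0.19 ± 0.37 (SE).

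Of 23 tested genes of heme synthesis and iron handling, 4 rose at the JQ high dose and none fell. ALAS1, the first enzyme of heme synthesis, which takes place in mitochondria, averaged 2298 ± 674 CPM in high dose livers and 116 ± 32.8 CPM in JQ controls (SD, n = 5 each), a log2 fold change of 4.30 ± 0.25 (SE). PGRMC1, a heme-binding partner of cytochromes P450, rose by 1.23 ± 0.13, SLC11A2, an iron transporter, by 0.77 ± 0.15, and HMOX1, which degrades heme, by 0.58 ± 0.15 (log2, SE). The HMOX1 call, at an adjusted p of 0.0407 in edgeR's test, was lost without any one of 10 libraries and kept without high dose replicate 2, medium dose replicate 1, 4 or 5 or control replicate 4. The median log2 fold change of this list was 0.00 and that of all features 0.01.

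Of 17 tested genes of glutathione synthesis and use, 2 rose and none fell, and the median log2 fold change was 0.11. Both encode subunits of glutamate-cysteine ligase, the first step of glutathione synthesis. GCLC, the catalytic subunit, averaged 48.8 ± 13.1 CPM at the JQ high dose and 20.3 ± 2.92 CPM in control livers (SD, n = 5 each), a log2 fold change of 1.26 ± 0.18 (SE). GCLM, the modifier subunit, averaged 51.8 ± 17.8 CPM in high dose livers and 30.7 ± 2.85 CPM in control livers, a log2 fold change of 0.75 ± 0.17 (SE) with an adjusted p of 0.0241 in edgeR's test. The GCLM call was lost without JQ control replicate 2, 3 or 4, at up to 0.0647.

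A list of urea cycle, malate-aspartate shuttle and related enzymes had 16 tested genes and a median log2 fold change of 0.12. Of these 1 rose and none fell. The riser was PCK1, the cytosolic enzyme of gluconeogenesis rather than of either pathway. It was at 96.2, 25.0, 56.4, 13.8 and 725 CPM in JQ high dose replicates 1 to 5, against 7.53, 7.35, 10.4, 10.2 and 7.08 CPM in JQ control replicates 1 to 5. Every high dose library lay above every control and replicate 5 far above the rest. The log2 fold change was 4.43 ± 1.10 (SE) with an adjusted p of 0.0403 in edgeR's test, and the call was lost without any one of 7 libraries. These were all 5 JQ controls, medium dose replicate 2 and high dose replicate 5, without which the value was 2.49. Of 26 tested genes of the tricarboxylic acid cycle and mitochondrial content, 2 rose and none fell. TOMM20, a receptor of protein import, averaged 78.9 ± 10.7 CPM in high dose livers and 58.0 ± 3.37 CPM in control livers (SD, n = 5 each), a log2 fold change of 0.44 ± 0.088 (SE). The median log2 fold change of this list was 0.05, against 0.15 for the carriers.

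Without the library with kidney markers, the counts called higher at the JQ high dose were 1 for other mitochondrial membrane transport, 3 for heme and iron, 2 for glutathione and 1 for the tricarboxylic acid cycle. On the list of urea cycle, shuttle and related enzymes it was 1, PCK1. In DCCO edgeR called no gene of these lists at the high dose, where 1 gene of the other SLC25 names, UCP3, and 1 of the tricarboxylic acid cycle list, NRF1, had an unadjusted p under 0.05. UCP3 was higher but near the limit of counting, with 8 to 17 reads per high dose library and 0 to 11 per control. The difference between the species was called, each time larger in JQ, for 1 gene of mitochondrial membrane transport, 2 of heme and iron, 1 of glutathione and 1 of the list of urea cycle, shuttle and related enzymes. MPC1, ALAS1 and GCLC were among them, with differences of 1.46 ± 0.35, 4.24 ± 0.31 and 1.16 ± 0.24 (SE, log2). Of all 15596 names, 0.757% were called higher in this test. MPC1 was at 307 CPM in DCCO control replicate 2, against 107 to 119 CPM in the other DCCO controls. The differences of these genes were not refitted with single libraries left out.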

How the data were processed

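Embryonic liver RNA was sequenced from 15 JQ and 14 DCCO libraries. The authors deposited raw counts of reads per protein name, 1 table per species, and the table names credit Seq2Fun with a database of all birds. They write it as Seq2Fun2, and no source used here gives a fuller version or its read settings. The submitters' processing notes list edgeR with no version or role. All per-sample columns were used (0 left out). One DCCO control column carries a number that no control label has and was kept as an unnumbered control.

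Counts were tested with edgeR 4.0.16 in R 4.3.3 (TMM scaling, filterByExpr with minima of 10 and 15 reads, robust quasi-likelihood fit of the 3 groups of a species, Benjamini-Hochberg adjustment over all features tested). Species were compared in 1 fit over the shared names. CPM were computed from TMM-scaled totals. Alternatives used DESeq2 1.42.0, limma 3.58.1 voom, size factors, no filter, a replicate block, only the groups compared, and each library left out. Some alternatives were chosen after seeing the data. These were summing second names and leaving out the kidney marker library with the day 16 control, or both DCCO libraries numbered 6. Column names carry that number for DCCO control replicate 1 and DCCO high dose replicate 1. The scripts were tested on simulated data.

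Members and gene lists were chosen with earlier results of these data known. Values in every high dose and control library are given for members called in any comparison. The same is given within the species for the 6 with the smallest p in JQ and the 4 in DCCO at the high dose. Medium dose values are given for some members only. From the other lists, up to 6 called genes or the 3 with the smallest p are named; the values of some genes are not reported here. Labels describe individual livers. The p-values set a group difference against the spread among libraries, which is estimated over all groups of a fit and with information from other features. They cover only the variation among these samples. Depth limits precision through counting error, which weighs most on low counts, and bears on which members pass the filter. A level of 3 reads, taken as the floor, was 0.113 to 0.299 CPM per library.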

Additional observations from a re-analysis of the deposited data

Results flagged for a closer look

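Single libraries stood apart from the rest of their group, by the gap to the nearest other library over the range of the group, in 17 of 240 groups of values, or 7.08%. The cutoff flags about 1 in 20 groups of independent, normally distributed values. Members share libraries, so these shares cannot be compared as a test. The flags fell in 8 libraries, 7 of them in DCCO high dose replicate 1. In JQ high dose replicate 1, the library with kidney markers, SLC25A15 was at 33.5 CPM, SLC25A48 at 33.9 CPM and SLC25A36 at 4.22 CPM. In DCCO high dose replicate 1, SLC25A1 was at 1105 CPM, SLC25A10 at 252 CPM, SLC25A28 at 42.3 CPM, SLC25A3 at 759 CPM, SLC25A33-like at 27.9 CPM and SLC25A39 at 90.4 CPM, all above the other 4, and SLC25A24 was below them at 5.43 CPM.

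In DCCO control replicate 2, SCaMC-2 was at 106 CPM and SLC25A36-like at 14.8 CPM. SLC25A33-like was at 11.9 CPM in JQ medium dose replicate 1 and at 25.5 CPM in DCCO medium dose replicate 1. SLC25A40 was at 1.22 CPM in JQ medium dose replicate 5, and SLC25A36 at 3.2 CPM in JQ control replicate 4. SLC25A42 was low in JQ control replicate 3, at 7.09 CPM.

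By the test of the difference itself, the high dose effect was larger in JQ for SLC25A39 by 0.66 and for SLC25A47 by 2.1 on the log2 scale. With single libraries left out, these calls were lost in 8 and 22 fits. Embryonic day and the unstated dose of each high dose group cannot be told apart from species here. Whatever the header prefix of the DCCO controls marks cannot be told apart from the DCCO exposure in these differences.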

How the results depend on the processing

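No member called in a comparison changed its direction there under any alternative. Of the 40 members tested at the high dose against control, 28 kept their sign under all alternatives in JQ and 22 in DCCO. At the JQ high dose DESeq2 called 974 features (531 in edgeR's test), and leaving out single libraries gave 303 to 659. At the JQ medium dose DESeq2 called 6. For the JQ high against the medium dose, DESeq2 called 2 members and 614 features, a replicate block left 187 features, and only the groups compared 128. Single libraries left out gave 0 to 2 members and 166 to 391 features.

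At the DCCO high dose 3 features were called with no filter, 62 by DESeq2, 2 with a replicate block, 2 with only the groups compared and 16 without the libraries numbered 6, with 2 to 14 when single libraries were left out. At the DCCO medium dose DESeq2 called 1 member and 54 features, and single libraries left out gave 6 to 16 features. Between the DCCO doses DESeq2 called 4 features and a replicate block 1, and single libraries left out gave 0 to 1.

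For the difference between the species, 1 member, SLC25A39, was called with no filter, by limma voom and without the libraries numbered 6. Without the kidney marker library and day 16 control the 1 called was SCaMC-2 (adjusted p 0.0494), and SLC25A39 and SLC25A47 were not called. With a replicate block 0 were called (SLC25A39 0.0647, SLC25A47 0.242). Single libraries left out gave 0 to 3 members, and a replicate block left 93 features of 188. The cause was not tested. SLC25A29 at the JQ high dose missed the threshold with no filter (adjusted p 0.0520), limma voom (0.0535), a replicate block (0.0514), only the groups compared (0.0974), and without the kidney marker library and day 16 control (0.0552), in models fitted across all genes.

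Same-numbered libraries correlated at -0.121 to 0.147 in JQ and at -0.119 to 0.385 in DCCO in their deviations from group means, with 2 of 15 and 6 of 11 pairs over 0.1. Libraries with different numbers exceeded 0.1 in 4 of 60 pairs in JQ and 15 of 54 in DCCO. The highest correlation was with the own number for 4 of 15 JQ and 7 of 13 numbered DCCO libraries. As the labels give the numbers no meaning, they were not taken to pair the libraries. In DCCO the share of pairs over 0.1 was larger for same-numbered libraries than for the others. DCCO control replicate 1 and high dose replicate 1, a same-numbered pair, are the libraries with number 6 in their column name. Whether same-numbered DCCO libraries share a source was not tested. Counting error bears most on members with few reads, such as SLC25A40 and SLC25A47.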
